A study of Mus musculus and Homo sapiens with 33 samples.

Results

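Aqp5, Hopx, Ager, Sftpc, Sftpd, Nkx2-1, Foxa1, Foxa2, Cebpa and Hnf4a are 10 mouse genes that mark the cells of the lung alveolus or regulate their identity, and they were read by symbol from the 38924 genes counted in KPL cells, a murine lung adenocarcinoma line. All 10 symbols were found, each once. Polyadenylated RNA was sequenced from 3 libraries of KPL cells given 4-hydroxytamoxifen (4-OHT) for 72 hours, at a dose the labels write as 10 nm, and from 3 control libraries named EtOH (ethanol) in the descriptions. The 4-OHT deletes Lin9 in this line; LIN9 is a scaffold protein of MuvB, a complex that regulates cell cycle genes. How 4-OHT brings about the deletion is not stated in the labels, and both groups come from 1 line. No RNA was sequenced from a line that keeps Lin9 under 4-OHT, so effects of 4-OHT itself and of Lin9 loss cannot be told apart. Since no label says that the 6 libraries came from separate cultures, p-values measure only how far these libraries spread, which may be technical.

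The alveolus is lined by flat type I cells, across which gas is exchanged, and by cuboidal type II cells, which secrete surfactant and can give rise to type I cells. Nkx2-1 is the homeobox factor that sets lung identity and drives surfactant genes together with the forkhead factors Foxa1 and Foxa2 and the leucine zipper factor Cebpa. Hnf4a is a nuclear receptor of liver and gut epithelium that normal alveolar cells lack. In mouse lung adenocarcinoma, loss of Nkx2-1 is known to be accompanied by a gastric type of differentiation with Hnf4a expression.

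The libraries held 5894309, 5913942 and 5904473 counted reads after 4-OHT, against 5871665, 5876193 and 5859826 in control. Levels are given as CPM, read counts scaled to a common library size, with TMM normalisation. Lin9 itself stood at 17.8 ± 0.615 CPM after 4-OHT and 25.1 ± 3.29 CPM in control (mean ± SD, n = 3 each; log2 fold change -0.49, edgeR adjusted p = 0.0011), or 71.1% of control. Which exons are deleted is not stated in the labels, so a count over the whole gene is a partial check of them. Of 13355 genes with enough reads to test, 9.79% were called changed, 5.17% lower and 4.61% higher after 4-OHT (edgeR, quasi-likelihood, p under 0.05 after Benjamini-Hochberg adjustment).

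As a lung adenocarcinoma line the cells expressed the epithelial keratins Krt8, Krt18 and Krt19 and, at the same time, the mesenchymal filament gene Vim. Alveolar genes were unevenly represented in the RNA. The transcription factors Nkx2-1, Foxa1, Foxa2, Cebpa and Hnf4a and the type I water channel Aqp5 had enough reads to test, 6 of the 10 genes, whereas Ager, Hopx, Sftpd and Sftpc were below the low-count filter, and the last 3 of these, with at most 3 reads in any library, were not expressed at this depth. After 4-OHT Aqp5 fell to 89.8% of its control level, and none of the 5 transcription factors passed the test (edgeR; 1 at an unadjusted p under 0.05, and 0 in DESeq2 and limma-voom). Of the 6 tested genes 1 was lower and 0 were higher, so that 16.7% were called, against 9.79% of all genes tested. The median log2 fold change was -0.15, against 0.00052 over all genes tested. At an unadjusted p under 0.05 there were 2 lower (Aqp5 and Nkx2-1) and 0 higher, and DESeq2 and limma-voom each called 1 lower and 0 higher.

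Promoter sequences are shown for Aqp5, the gene that was called, for Nkx2-1 and Foxa1 as lung and foregut regulators, and for both annotated starts of Hnf4a, whose reads the gene count adds together. They were taken from RefSeq on GRCm38.p6, the build of all coordinates given here, and run 5′ to 3′ on the gene's strand, with 250 bases before the annotated start and 50 after. RefSeq windows were at hand for 8 of the 10 genes, 12 windows in all. Each was searched on both strands for TTTGAA (the CHR element bound by MuvB), GGAATG (the motif of the TEAD partners of YAP), TGTTTAC (forkhead) and CAAGTG (NKX2 factors). No window held more than 1 match, and capitals mark each one shown.

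Aqp5, chr15:99590778-99591077, plus strand: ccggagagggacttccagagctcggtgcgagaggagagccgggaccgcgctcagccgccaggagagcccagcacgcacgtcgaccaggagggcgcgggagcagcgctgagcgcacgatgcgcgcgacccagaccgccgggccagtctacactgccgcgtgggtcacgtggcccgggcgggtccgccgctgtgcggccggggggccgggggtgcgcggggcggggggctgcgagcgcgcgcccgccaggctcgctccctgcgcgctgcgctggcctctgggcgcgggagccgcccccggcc

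Nkx2-1, chr12:56536859-56537158, minus strand: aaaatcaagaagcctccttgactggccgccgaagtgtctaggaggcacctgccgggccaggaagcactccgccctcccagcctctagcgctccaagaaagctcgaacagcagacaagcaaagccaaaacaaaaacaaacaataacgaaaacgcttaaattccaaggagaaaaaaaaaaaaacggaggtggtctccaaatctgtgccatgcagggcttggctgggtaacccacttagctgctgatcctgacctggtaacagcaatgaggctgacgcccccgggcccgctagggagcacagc

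Foxa1, chr12:57546062-57546361, minus strand: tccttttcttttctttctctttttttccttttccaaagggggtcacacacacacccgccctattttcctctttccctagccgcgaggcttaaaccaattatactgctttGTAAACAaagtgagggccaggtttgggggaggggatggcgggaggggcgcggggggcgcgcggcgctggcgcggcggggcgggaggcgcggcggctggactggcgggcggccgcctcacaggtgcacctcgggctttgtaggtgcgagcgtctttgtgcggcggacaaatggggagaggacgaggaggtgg

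Hnf4a, upstream start, chr2:163506607-163506906, plus strand: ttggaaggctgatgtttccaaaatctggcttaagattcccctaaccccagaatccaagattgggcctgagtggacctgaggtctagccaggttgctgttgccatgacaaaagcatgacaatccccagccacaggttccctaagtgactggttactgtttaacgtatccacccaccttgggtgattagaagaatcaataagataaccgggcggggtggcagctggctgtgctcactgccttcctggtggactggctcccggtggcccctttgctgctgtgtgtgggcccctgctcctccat

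Hnf4a, downstream start, chr2:163546905-163547204, plus strand: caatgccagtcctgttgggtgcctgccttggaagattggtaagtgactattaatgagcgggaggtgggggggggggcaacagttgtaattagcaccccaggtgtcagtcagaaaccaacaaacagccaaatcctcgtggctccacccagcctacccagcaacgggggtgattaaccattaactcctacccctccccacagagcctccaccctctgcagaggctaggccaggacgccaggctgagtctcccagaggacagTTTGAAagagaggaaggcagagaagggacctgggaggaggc

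The Aqp5 and Nkx2-1 windows held none of the 4 motifs in these letters. The Foxa1 window held a forkhead match on the opposite strand, starting 141 bases before the annotated start, and the downstream Hnf4a window held TTTGAA starting 9 bases after its own annotated start. The Foxa1 window lies inside the annotated span of the gene, whose 5′ end on the minus strand is further upstream, at 57548029. The sequence at that end was not searched. Among the 12 windows TTTGAA was present in 1, GGAATG in 0, TGTTTAC in 1 and CAAGTG in 1, a match in a Hopx window. Over 32851 RefSeq windows of the same length the shares were 17.9%, 14.7%, 3.65% and 13.6%. The Aqp5 window had a GC content of 79.7% and 46 CG dinucleotides, against medians of 52.7% and 7 over all windows, while both Hnf4a windows had 4. A match is a description of the letters and does not show that a factor binds there, and no factor's binding at these promoters was analysed here.

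Aqp5 encodes the water channel aquaporin 5 of the apical membrane of type I cells (ENSMUSG00000044217, chromosome 15, 99591028 to 99594829). It was read 2287, 2199 and 2400 times in the 4-OHT libraries, against 2529, 2580 and 2464 times in the control libraries. All 3 4-OHT libraries lay below all 3 control libraries, also after scaling, with 388, 371 and 407 CPM after 4-OHT and 433, 443 and 422 CPM in control. Among all genes tested, 24.3% had groups that did not overlap, and in 12.2% it was 4-OHT that lay below. Aqp5 averaged 389 ± 18.2 CPM after 4-OHT and 433 ± 10.4 CPM in control (SD, n = 3 each). The log2 fold change was -0.15, with an SE of 0.03 (edgeR adjusted p = 0.00076). The level after 4-OHT was 89.8% of control, with a 95% interval of 85.6% to 94.2%. This fall was small among the falls called: 595 of the 691 genes called lower, 86.1%, fell by more, and their median was -0.32. The authors' deposited table gives a log2 fold change of -0.16 and an FDR of 0.0016 for Aqp5. The gene lies wholly inside Gm34765, an annotated long noncoding RNA, and with the use of strand in counting unstated, reads of the pair cannot be told apart.

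**Figure D1:**
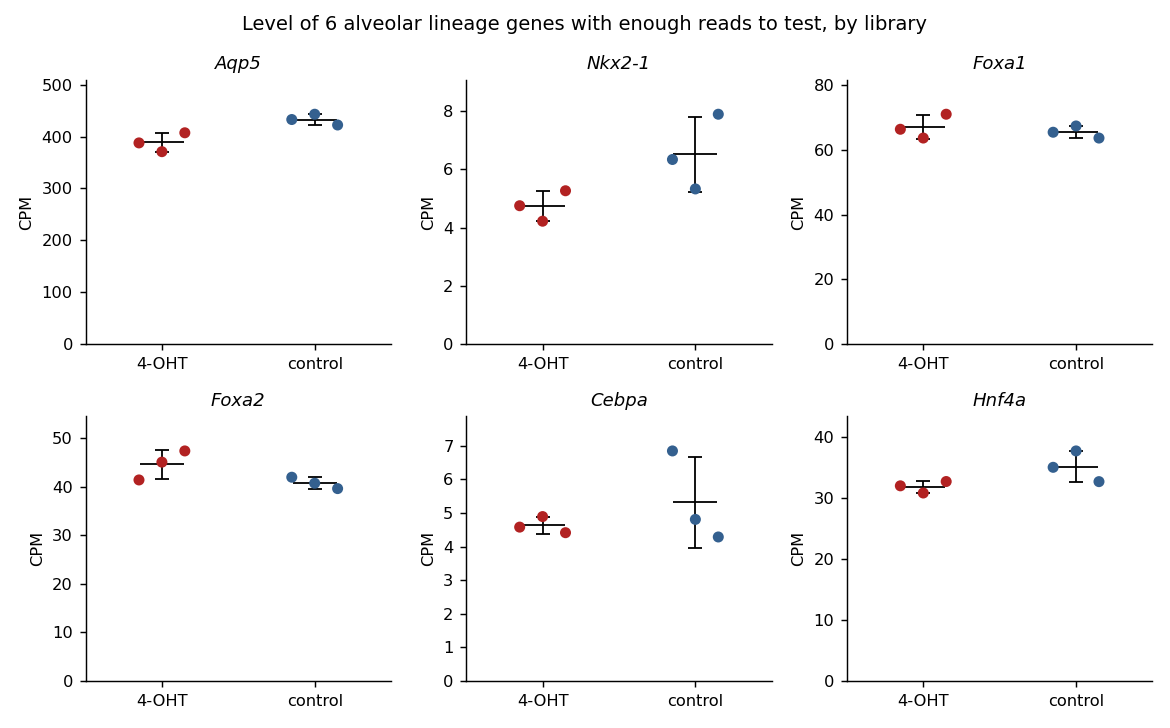
Level in CPM (linear axis from 0) of the 6 genes with enough reads to test, with 1 point per library, 4-OHT in red on the left and control in blue on the right, and black bars for the mean ± SD of 3 libraries. The 3 Aqp5 points after 4-OHT (371 to 407 CPM) lie below the 3 control points (422 to 443 CPM). The Nkx2-1 points after 4-OHT also lie below those of control, by a narrow margin (5.26 against 5.32 CPM), whereas the Foxa1, Foxa2, Cebpa and Hnf4a points of the groups overlap.

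The other type I markers of the 10 genes had few reads. Ager (ENSMUSG00000015452, chromosome 17, 34597460 to 34600937), which encodes the receptor RAGE of the basolateral membrane of type I cells, was counted at 4, 5 and 5 reads in the 4-OHT libraries and at 11, 11 and 7 reads in the control libraries. The groups did not overlap, which held in the same direction for 7.25% of 2552 genes that were below the filter and had at least 15 reads in sum. The summed reads were 14 after 4-OHT and 29 in control, a ratio of 0.477 with an exact 95% interval of 0.233 to 0.932 that covers counting error only. Tested without the low-count filter, Ager had an adjusted p of 0.248 (edgeR, 21286 genes), and the authors' deposited table gives an FDR of 0.227. Hopx (ENSMUSG00000059325, chromosome 5, 77086986 to 77115123), the homeodomain-only protein gene of type I cells, had 1, 0 and 1 reads after 4-OHT and 0, 3 and 0 reads in control, so no library exceeded 3 reads and no fold was formed.

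Surfactant genes were not detectable above the counting floor in either group. Sftpc (ENSMUSG00000022097, chromosome 14, 70520941 to 70524081), the gene of surfactant protein C and the defining marker of type II cells, had 0 reads in all 6 libraries. A count of 0 allows up to 3 reads, or 0.169 CPM over the 17712724 reads of the 4-OHT libraries and 0.171 CPM over the 17607684 reads of the control libraries (counting error only). Sftpd (ENSMUSG00000021795, chromosome 14, 41172212 to 41185198), the gene of the collectin surfactant protein D, had 1, 1 and 0 reads after 4-OHT and 0 reads in each control library. With 2 reads in sum after 4-OHT, the limit for a count of 0 applies to Sftpd in control only. Of the surfactant genes outside the 10, Sftpa1 had 0 reads in all 6 libraries and Sftpb at most 1 in any library. Hopx, Sftpc and Sftpd had no line in the authors' deposited table, which lists 7 of the 10 genes.

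**Figure D2:**
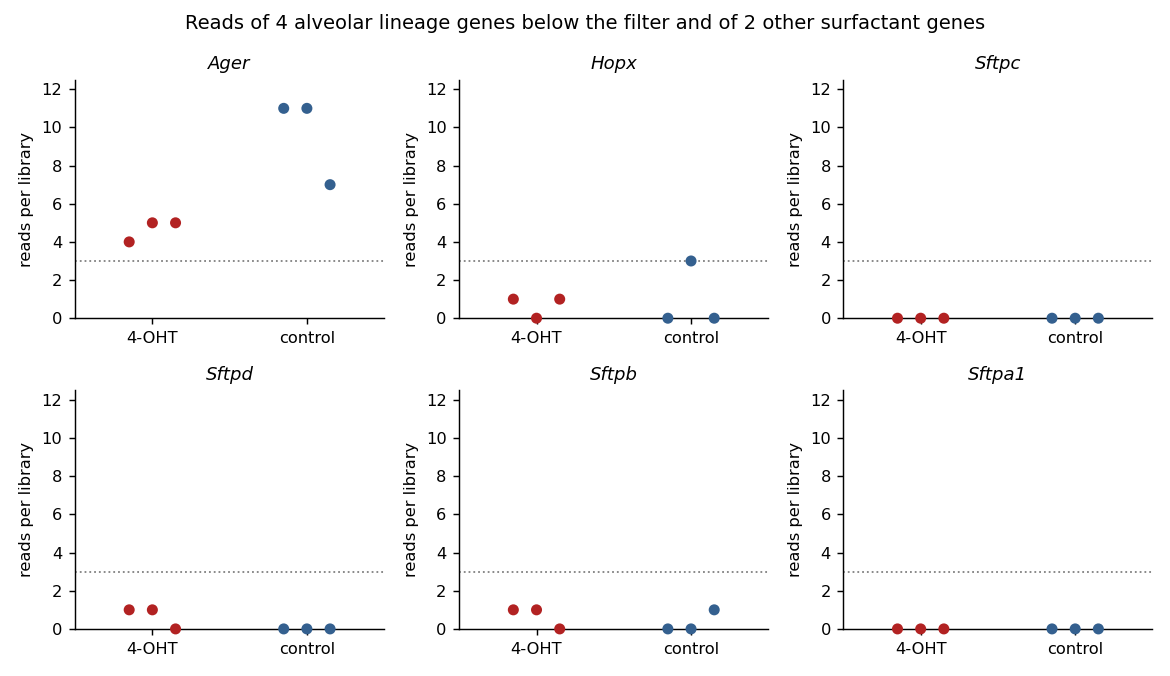
Reads per library (linear axis from 0) of the 4 genes below the low-count filter and of Sftpb and Sftpa1, with 1 point per library, 4-OHT in red on the left and control in blue on the right. The dotted line marks 3 reads, and Ager is the one gene of the 6 with points above it (4 to 5 reads after 4-OHT, 7 to 11 in control).

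Nkx2-1 (ENSMUSG00000001496, chromosome 12, 56531935 to 56536908) was present at a low level. It was read 28, 25 and 31 times in the 4-OHT libraries and 37, 31 and 46 times in the control libraries, so that the groups met at 31 reads. After scaling, the highest 4-OHT value was 5.26 CPM and the lowest control value 5.32 CPM, so the groups narrowly did not overlap. Of all genes tested, 12.2% had groups that did not overlap with 4-OHT lower. The means were 4.74 ± 0.522 CPM after 4-OHT and 6.51 ± 1.29 CPM in control (SD, n = 3 each). The log2 fold change of -0.46 (SE 0.22) did not pass (edgeR adjusted p = 0.198). The level after 4-OHT was 72.9% of control, with a wide 95% interval of 54.2% to 98.0%. With 25 to 46 reads per library, counting error limits how small a difference could be detected for Nkx2-1. The authors' deposited table gives a log2 fold change of -0.46 and an FDR of 0.2145.

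The forkhead genes were expressed in every library, and neither passed the test. Foxa1 (ENSMUSG00000035451, chromosome 12, 57540628 to 57548029), a pioneer factor of foregut endoderm, was read 391, 377 and 418 times after 4-OHT and 382, 392 and 371 times in control, and the groups overlapped. Its level was 66.9 ± 3.71 CPM after 4-OHT and 65.4 ± 1.86 CPM in control (log2 fold change 0.03, edgeR adjusted p = 0.842), with an interval of 93.7% to 112% of control. Without 4-OHT replicate 3 the Foxa1 log2 fold change was -0.01. Foxa1 shares 1326 bases of its annotated span with Ttc6, which had 58 to 71 reads after 4-OHT and 59 to 66 in control. Foxa2 (ENSMUSG00000037025, chromosome 2, 148042877 to 148046969), its close relative, was read 244, 267 and 279 times after 4-OHT and 245, 237 and 231 times in control, and replicate 1 after 4-OHT lay inside the control range. Its level was 44.6 ± 3.01 CPM after 4-OHT and 40.7 ± 1.17 CPM in control (log2 fold change 0.13, edgeR adjusted p = 0.356), with an interval of 98.2% to 122% of control. The Foxa2 interval reached further above control than below it.

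Cebpa (ENSMUSG00000034957, chromosome 7, 35119293 to 35121928), a leucine zipper factor of type II cell maturation, had few reads, with 27, 29 and 26 reads after 4-OHT and 40, 28 and 25 reads in control. Control replicate 1 stood above all other libraries. The mean was 4.63 ± 0.244 CPM after 4-OHT and 5.31 ± 1.35 CPM in control (log2 fold change -0.20, edgeR adjusted p = 0.701), and without control replicate 1 the log2 fold change was 0.03. Its interval, 63.6% to 119% of control, holds both a fall and a gain.

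Hnf4a (ENSMUSG00000017950, chromosome 2, 163506811 to 163572907), the receptor of gut and liver epithelium, was read 189, 183 and 193 times after 4-OHT and 205, 220 and 191 times in control, and the groups overlapped between 191 and 193 reads. Its level was 31.9 ± 0.952 CPM after 4-OHT and 35.2 ± 2.52 CPM in control (log2 fold change -0.14, edgeR adjusted p = 0.375), with an interval of 80.2% to 102% of control. The antisense gene Hnf4aos shares 34911 bases of span with Hnf4a, and no source used here states whether counting used the strand. In the authors' deposited table the log2 fold changes are 0.03 for Foxa1, 0.13 for Foxa2, -0.20 for Cebpa and -0.15 for Hnf4a, with FDR values from 0.4545 to 0.960.

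**Figure D3:**
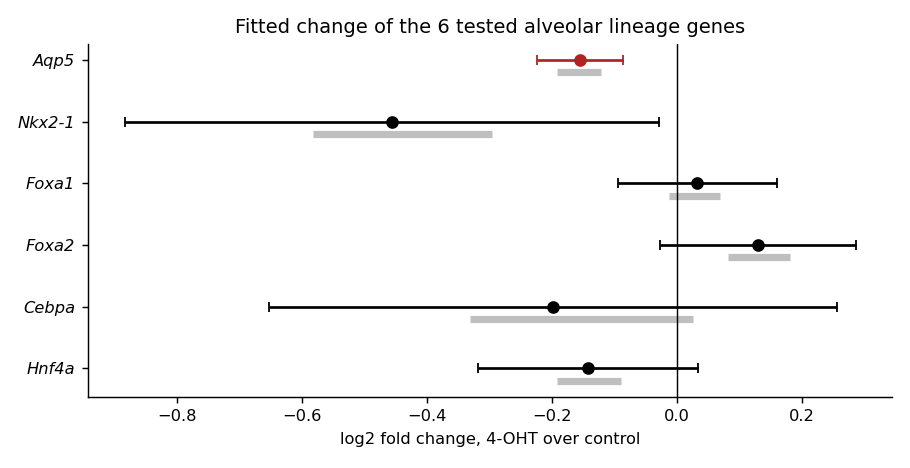
Log2 fold change of 4-OHT over control for the 6 tested genes (points) with the 95% interval of the edgeR fit (whiskers), red where the adjusted p is under 0.05 and black otherwise. The grey bar under each gene spans its values over 14 other ways of processing, and Aqp5 is the one gene drawn in red, at -0.15.

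Other genes of the same cell types were read from lists to place these values. The calls below made up 37.5% of tested type I, 14.3% of type II and 16.7% of lung and endoderm factor genes. They made up 22.2% of gut and liver, 45.5% of transitional, 50% of epithelial and 33.3% of mesenchymal genes. Among all genes tested the share was 9.79%, and the lists were not matched to these for read depth. Of 12 further type I markers, 8 could be tested, with 2 higher, 1 lower and 5 that did not pass (median log2 fold change 0.06). Lmo7, a LIM domain protein of cell junctions, stood at 687 ± 18.9 CPM after 4-OHT and 500.5 ± 8.40 CPM in control (log2 fold change 0.46, edgeR adjusted p = 8.9e-22). Akap5, an anchoring protein for protein kinase A that was named after its value was seen, stood at 17.6 ± 1.62 CPM after 4-OHT and 12.0 ± 0.847 CPM in control (log2 fold change 0.55, edgeR adjusted p = 0.0020; 0.080 in DESeq2). Vegfa, the growth factor that type I cells supply to the capillaries, fell to 130 ± 2.37 CPM, against 151 ± 3.29 CPM in control (log2 fold change -0.22). The caveolin genes Cav1 and Cav2 and the late type I marker Igfbp2 had 0 reads in all 6 libraries. Clic5, below the filter like Ager and named after its values were seen, differed in the opposite direction to Ager. It had 5, 6 and 6 reads after 4-OHT and 4, 0 and 2 reads in control, and was not tested. Type I markers thus moved in both directions beside the fall of Aqp5, and Gprc5a, chosen after its value was seen, did not pass (log2 fold change 0.09, edgeR adjusted p = 0.083).

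Of 12 further type II markers, 7 could be tested, with 1 lower, 0 higher and 6 that did not pass (median -0.10). At an unadjusted p under 0.05 there were 3 lower and 0 higher, and DESeq2 called 0. The gene called was Lpcat1, an acyltransferase that makes surfactant lipid, at 79.1 ± 1.77 CPM after 4-OHT and 89.7 ± 2.95 CPM in control (log2 fold change -0.18, edgeR adjusted p = 0.029). That call was lost without any 1 of 4 libraries (4-OHT replicate 1 or 3, or control replicate 1 or 2; adjusted p 0.064 to 0.1665). Fgfr2, the receptor through which FGF signals maintain type II cells, was at 245 ± 19.7 CPM after 4-OHT and 263 ± 4.93 CPM in control and did not pass (adjusted p = 0.096), though it did without 4-OHT replicate 1 (adjusted p = 0.0039). The lipid transporter gene Abca3 and the lysosomal marker gene Lamp3 were expressed and uncalled (log2 fold changes -0.03 and 0.05, adjusted p 0.866 and 0.906), both named after their values were seen. Sftpa1, Napsa and Slc34a2, all typical of mature type II cells, had 0 reads in all 6 libraries.

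Among 14 further transcription factors of lung and foregut endoderm, 12 could be tested, with 2 lower, 0 higher and 10 that did not pass (median -0.06). None was higher at an unadjusted p under 0.05, and DESeq2 called 0 in either direction. Grhl2, a grainyhead factor that keeps epithelial junction genes active, fell to 28.4 ± 3.13 CPM, against 37.3 ± 2.37 CPM in control (log2 fold change -0.39, edgeR adjusted p = 0.0014; 0.058 in DESeq2). Cebpb, a relative of Cebpa, fell to 13, 19 and 14 reads after 4-OHT, against 23, 27 and 32 reads in control (log2 fold change -0.85, edgeR adjusted p = 0.029). The Cebpb call was lost without any 1 of 4 libraries (4-OHT replicate 1 or 3, or control replicate 2 or 3; adjusted p 0.064 to 0.171). The airway and foregut factor Sox2 and the epithelial factor Elf3 had 0 reads in all 6 libraries.

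Beside Hnf4a, genes of gut and liver epithelium were read from a list of 17, of which 9 could be tested. The gut homeobox gene Cdx2 stood at 75.5 ± 8.61 CPM after 4-OHT and 79.5 ± 2.68 CPM in control, and the gastric protease gene Ctse at 121 ± 3.47 CPM after 4-OHT and 128 ± 2.80 CPM in control, neither called (adjusted p 0.567 and 0.431). After 4-OHT 2 genes of this list rose, 0 fell and 7 did not pass (median -0.07), and none was lower at an unadjusted p under 0.05 or in DESeq2, which called 1 higher. Cdh17, the liver-intestine cadherin, rose to 87.0 ± 4.80 CPM, against 69.2 ± 5.74 CPM in control (log2 fold change 0.33, edgeR adjusted p = 3.6e-05). The stomach genes Gkn1, Gkn2, Tff1 and Tff2 had at most 4 reads in any library. Cdx2, Ctse, Gkn1, Gkn2, Tff1 and Tff2 were named after their values were seen.

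Genes of the transitional state between type II and type I cells, in which Krt8 is high, could all be tested (11 genes). After 4-OHT 3 fell, 2 rose and 6 did not pass (median 0.04). Slc4a11, a membrane transporter gene, fell to 91.0 ± 2.38 CPM, against 117 ± 5.51 CPM in control (log2 fold change -0.36, edgeR adjusted p = 8.9e-08), and Sfn, which encodes the 14-3-3 sigma protein, to 63.3 ± 3.08 CPM, against 82.6 ± 3.89 CPM in control (log2 fold change -0.38, edgeR adjusted p = 1.3e-06). Named after their values were seen, the integrin gene Itga2 changed by -0.23, the chromatin protein gene Hmga2 by 0.15 and the stress-response gene Ndrg1 by 0.31 on the log2 scale, the last lost in DESeq2 (adjusted p = 0.144). Krt8 itself stood at 1912 ± 33.2 CPM after 4-OHT and 1840.3 ± 12.6 CPM in control and did not pass (adjusted p = 0.219).

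**Figure D4:**
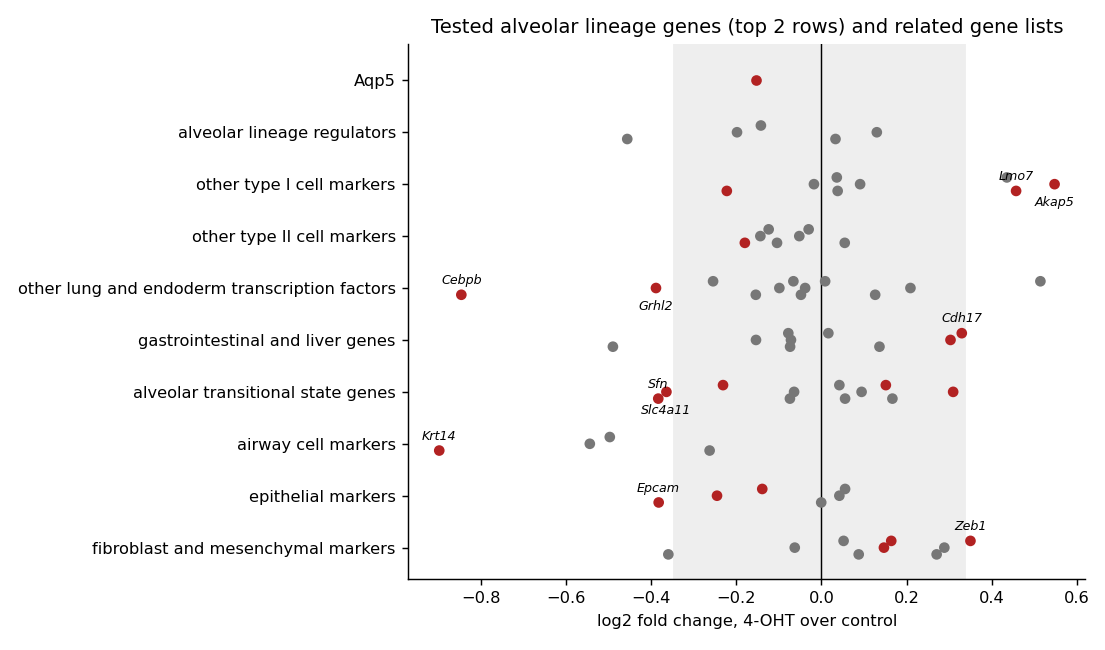
Log2 fold change of 4-OHT over control for each tested gene (1 point per gene) of the alveolar lineage genes, in the top 2 rows, and of 8 related lists, red where the edgeR adjusted p is under 0.05 and grey otherwise, with symbols at red points beyond 0.32 in size. The shaded band spans the 5th to 95th percentile of all 13355 genes tested (-0.35 to 0.34), and Aqp5 lies inside it.

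Some general epithelial genes changed as well. Of 6 epithelial markers, of which Krt8 and Krt19 are also in the transitional list, 3 were lower and 0 higher, and Krt18, chosen after its value was seen, stood at 1556 ± 18.0 CPM after 4-OHT and 1557 ± 21.3 CPM in control. At an unadjusted p under 0.05 there was 1 higher, and DESeq2 called 3 lower and 0 higher. Epcam, an adhesion gene of simple epithelia, fell to 171 ± 6.76 CPM, against 223 ± 2.66 CPM in control (log2 fold change -0.38, edgeR adjusted p = 4.4e-12), Krt7 changed by -0.25 and Cdh1, named after its value was seen, by -0.14. Among 9 tested fibroblast and mesenchymal markers 3 were higher and 0 lower, also 0 lower at an unadjusted p under 0.05 and in DESeq2. Vim rose to 3092 ± 26.02 CPM, against 2792 ± 23.3 CPM in control (log2 fold change 0.15), while the mesenchymal factor Zeb1 changed by 0.35 and N-cadherin, Cdh2, by 0.16. The Zeb1 call was lost in DESeq2 and without any 1 of 3 libraries (4-OHT replicate 1 or 2, or control replicate 2; adjusted p 0.078 to 0.1695). Cdh2, chosen after its value was seen, lost its call in DESeq2 and without any 1 library other than 4-OHT replicate 3 (adjusted p 0.068 to 0.088). The summed level of the 6 epithelial markers was 6043 to 6212 CPM after 4-OHT and 6174 to 6261 CPM in control, and that of the 11 mesenchymal markers 4559.8 to 4896 CPM after 4-OHT and 4347 to 4395 CPM in control. In bulk RNA fewer cells of a type and less RNA per cell cannot be told apart, and the part of these genes in the Aqp5 result was not tested. Leukocyte and endothelial markers had few reads, with 2 of 6 and 1 of 4 genes testable. Of these markers 0 were called (edgeR, also 0 at an unadjusted p under 0.05 and in DESeq2). Their summed levels were 5.43 to 6.61 CPM after 4-OHT and 3.43 to 9.41 CPM in control for leukocytes, where Cd3e had 0 reads, and 8.48 to 8.60 CPM after 4-OHT and 7.36 to 9.94 CPM in control for endothelium. Itgam (log2 fold change -0.22) and Tek (-0.09), the genes of highest mean CPM in these lists, did not pass. Tek was read 37, 27 and 31 times after 4-OHT and 29, 27 and 44 times in control, about as often as Nkx2-1.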

How the data were processed

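The authors deposited whole-number read counts per Ensembl gene for 6 RNA-seq libraries, not normalised, and a comparison table that holds log2 values (fold change of 4-OHT over control and mean CPM) and, per the file headers, a p-value and an FDR for each gene. Per the submitters' processing notes, the series used the builds hg19, GRCh37, mm10 and GRCm38.p6 with edgeR, TopHat2 2.1.0, bedtools 2.26.0, Bowtie2 and Bowtie 1.1.2, in unstated roles. No source used here names the counting program, annotation release or strand setting. Per the labels, total RNA was treated with DNase and libraries were made from polyA RNA with an NEBNext Ultra kit. The 27 ChIP-seq samples of the 33 in the series were not analysed here.

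Of 38951 lines, 27 repeats of an ID with identical counts were dropped. The analysis used edgeR 4.0.16 in R 4.3.3. Its filterByExpr (minimum count 10, minimum total 15) left 13355 genes, TMM factors lay between 0.994 and 1.005, and groups were compared by the robust quasi-likelihood F test, two-sided, without a replicate block, adjusted by Benjamini-Hochberg over all genes tested. Intervals are 95% intervals of that fit for single genes, not adjusted. Library totals differed little (5859826 to 5913942 reads), and replicates spread beyond what counting error gives (ratio of chi-square to its degrees of freedom 1.26 to 1.48). This excess was small, with a common coefficient of variation beyond counting error of 2.575% in edgeR. Whether it is biological or technical was not tested. Transcript lengths were not used, so levels are not compared between genes. Coordinates and promoters come from RefSeq on GRCm38.p6.

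The 10 genes and all lists were chosen with earlier results of these data known. Named genes were Lin9, the 10 genes, and in each list the 2 called genes with the smallest p, plus the gene with the highest mean CPM where fewer than 2 were called; every other gene named was chosen after its values were seen, whether or not the text repeats this beside it. Some genes of the lists, counted in the list totals, are not reported here by name. Alternatives were other scalings, no filter, a stricter one (3 libraries at 1 CPM or more), DESeq2 1.42.0, limma-voom (limma 3.58.1), a replicate block and leaving out each library; keeping the repeated lines was added after seeing the data.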

Additional observations from a re-analysis of the deposited data

How the results depend on the processing

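Under all 14 alternatives 1 of the 10 genes was called lower, Aqp5, and 0 were called higher; the Aqp5 log2 fold change lay between -0.19 and -0.12, with adjusted p from 2.1e-05 to 0.042, the highest without 4-OHT replicate 2. Nkx2-1, Foxa2 and Hnf4a kept their direction and stayed uncalled in all 14, with adjusted p of 0.121 to 0.657 for Nkx2-1. Foxa1 changed sign without 4-OHT replicate 3 (-0.01) and Cebpa without control replicate 1 (0.03), as did Itgam without control replicate 1 (0.08) and Tek without 4-OHT replicate 2 (0.01) or control replicate 3 (0.16), uncalled in each case. Over all genes, DESeq2 called 350 lower and 174 higher, in place of 691 and 616, and leaving out 1 library gave 403 (without control replicate 1) to 542 higher; the cause was not tested. Libraries of the same replicate number showed no shared deviation (correlation of same-numbered deviations -0.03 to 0.01 over genes). This does not show whether they were prepared as pairs, because counting error can hide a shared effect. With a replicate block 665 genes were lower and 579 higher, and Aqp5 stayed the one gene called of the 10. Of 30 genes with a test, those of the naming rule and Akap5, Itga2, Hmga2, Ndrg1, Cdh1 and Cdh2, 17 kept their direction and side of the threshold in all 14 alternatives and 8 lost a call in at least 1; the alternatives were not summarised for the other genes named. Depth limits Nkx2-1 and Cebpa, with 25 to 46 reads per library, and gives no test for Ager, Hopx, Sftpc and Sftpd.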

Other observations

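Markers of airway cells were also read. Of 13 airway markers 9 were under the low-count filter, among them the club cell genes Scgb1a1 (at most 2 reads in any library), Scgb3a2 and Cyp2f2 (0 reads in all 6 libraries) and the basal cell keratin Krt5 (0 reads in all 6 libraries). Of the 4 tested, 1 was lower and 0 were higher (edgeR, also 0 higher at an unadjusted p under 0.05 and in DESeq2). The share called was thus 25% of only 4 genes, against 9.79% of all genes tested. Krt14, a keratin of basal cells, was read 61, 64 and 66 times after 4-OHT and 117, 123 and 112 times in control. It fell to 10.8 ± 0.429 CPM, against 20.1 ± 0.966 CPM in control (log2 fold change -0.90, edgeR adjusted p = 7.7e-08). The SE was 0.13, and all 3 4-OHT libraries lay below all 3 control libraries. The mucin gene Muc5ac, named after its values were seen, varied widely within groups, with 54, 37 and 10 reads after 4-OHT and 57, 53 and 31 reads in control, and did not pass (edgeR adjusted p = 0.747).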
